A study of Rattus norvegicus with 6 samples.

Results

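The ERBB receptors and the proteins that restrain them were followed in back skin of Sprague-Dawley rats, an outbred laboratory strain. Of the 34225 loci in the count table, 6 were taken by gene symbol, each matching 1 row: the receptor genes Egfr, Erbb2, Erbb3 and Erbb4, and the restrainer genes Lrig1 and Errfi1. Messenger RNA was sequenced from 3 groups of 2 libraries. The control rats were untreated, with no mention of a vehicle. The gefitinib rats received 80 mg/kg by mouth and the afatinib rats 30 mg/kg by mouth, once a day until a rash appeared. The doses therefore differ between the inhibitors, and the number of days of dosing may differ as well. The labels give neither age nor sex, and they do not say whether a library is 1 animal, so every p-value measures the spread between these libraries, which may be technical.

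EGFR, ERBB2, ERBB3 and ERBB4 are receptor tyrosine kinases that pair with each other once a ligand of the EGF or neuregulin family binds. ERBB2 binds no ligand of its own and ERBB3 has little kinase activity, so each signals through its partners. In skin, EGFR is carried mainly by basal keratinocytes and the outer root sheath of the hair follicle, where it drives growth and holds back differentiation. LRIG1 is a membrane protein that promotes the breakdown of ERBB receptors and marks stem cells of the upper hair follicle. ERRFI1, also called MIG6, binds the kinase domain of active receptors and blocks it, and its transcription is itself raised by growth factor signalling. Gefitinib and afatinib share an anilinoquinazoline core. Gefitinib blocks EGFR reversibly, whereas afatinib carries a reactive side chain that bonds covalently to EGFR, ERBB2 and ERBB4.

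In the coordinates of the files (genome build not given in the sources used here) Egfr (ENSRNOG00000004332) lies on chromosome 14 from 99919485 to 100098796. Erbb2 (ENSRNOG00000006450) lies on chromosome 10 from 86367596 to 86391728, and Erbb3 (ENSRNOG00000004964) on chromosome 7 from 2989340 to 3010350. Erbb4 (ENSRNOG00000014248) lies on chromosome 9 from 75021790 to 75528644. Lrig1 (ENSRNOG00000012952) lies on chromosome 4 from 126617244 to 126644895, and Errfi1 (ENSRNOG00000058186) on chromosome 5 from 167952728 to 167966009. The values are read counts per whole gene. The only loci that overlap a member, 1 each in Erbb2 and Erbb4, held 0 counts in all libraries.

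The start regions of Egfr, Erbb2 and both restrainer genes are shown. Both inhibitors bind the product of Egfr, and afatinib also binds that of Erbb2. Both restrainer genes fell with gefitinib. Each sequence is the 250 bases before the gene start, 5′ to 3′, from RefSeq on build GRCr8. Capitals mark matches on either strand to the TATA box TATAAA, the GC box GGGCGG, the CCAAT box CCAAT, the AP-1 site TGANTCA or the cyclic AMP response (CRE) core TGACG, which do not overlap each other here. The motifs were chosen after the sequences had been read. Of the 6 members, 5 matched an entry by symbol; the one without is Erbb3.
Egfr (chr14:95378376-95378625, plus strand): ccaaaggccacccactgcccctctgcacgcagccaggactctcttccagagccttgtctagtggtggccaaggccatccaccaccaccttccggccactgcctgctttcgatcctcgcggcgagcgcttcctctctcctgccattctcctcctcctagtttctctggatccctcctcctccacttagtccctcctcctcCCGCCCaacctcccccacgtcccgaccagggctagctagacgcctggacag
Erbb2 (chr10:83907351-83907600, plus strand): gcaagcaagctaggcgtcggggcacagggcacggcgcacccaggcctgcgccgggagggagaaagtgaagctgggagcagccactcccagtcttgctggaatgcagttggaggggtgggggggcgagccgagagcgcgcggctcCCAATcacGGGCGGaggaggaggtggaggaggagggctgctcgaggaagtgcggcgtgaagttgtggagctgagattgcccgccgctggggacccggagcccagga
Lrig1 (chr4:128788220-128788469, minus strand): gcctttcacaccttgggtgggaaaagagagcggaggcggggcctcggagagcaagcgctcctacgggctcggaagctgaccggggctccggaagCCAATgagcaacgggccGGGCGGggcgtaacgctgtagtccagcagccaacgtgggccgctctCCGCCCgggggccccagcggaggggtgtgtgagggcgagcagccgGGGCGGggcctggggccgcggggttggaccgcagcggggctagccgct
Errfi1 (chr5:166606591-166606840, plus strand): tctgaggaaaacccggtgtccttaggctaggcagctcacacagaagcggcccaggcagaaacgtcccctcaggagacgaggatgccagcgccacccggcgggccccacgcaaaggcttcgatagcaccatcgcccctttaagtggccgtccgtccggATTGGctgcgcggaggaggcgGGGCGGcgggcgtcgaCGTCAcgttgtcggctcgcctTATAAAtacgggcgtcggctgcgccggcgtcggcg
All 4 windows held the GC box, which was in 30.5% of the 33469 windows of this length, with 3 matches before Lrig1 and 1 before each other gene. The 4 windows were 63.6% to 73.2% G and C, beside a median of 51.2% over all windows. The shares over all windows were not matched for that. The CCAAT box stood before Erbb2, Lrig1 and Errfi1 (34.0% of all windows). Errfi1 alone of these 4 held the TATA box (12.9% of all windows) and the CRE core (18.2%). The AP-1 site (6.34% of all windows) was in none of the 4. A match describes these letters only.

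Library totals ran from 17206456 to 22086673 counts, and 16398 loci passed the filter on low counts. The filter passed 5 of the 6 members and not Erbb4. Marker genes of skin were present: all 7 basal keratinocyte genes searched, among them Krt5 and Krt14, were detected in every library. Together they held 0.0675% to 0.577% of the counts. Skeletal muscle genes (15 found) were far more abundant, at 4.98% to 20.2% of the counts. Their summed levels were 239393 to 282032 CPM (a count over the TMM-scaled library size) in untreated skin, 38609 to 77978 with gefitinib, and 38492 and 168513 with afatinib. Afatinib replicate 1 stood apart from the other inhibitor libraries: the correlation of its log2 CPM over genes (not independent of each other) was r = 0.955 with untreated replicate 1, 0.956 with untreated replicate 2 and 0.937 with afatinib replicate 2. Calls of the members are therefore given with and without that library.

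Of the receptors Erbb3 rose in rash skin, and both restrainers fell; Egfr and Erbb2 had higher mean levels that did not pass the test with all libraries. In the gefitinib comparison Erbb3 rose 3.45-fold while Lrig1 and Errfi1 fell, so 3 of the 5 tested members passed edgeR's quasi-likelihood test (1 higher, 2 lower), against 17.7% of all genes tested (12.3% higher and 5.45% lower). In the afatinib comparison 0 of 5 passed, against 3.98% of all genes tested (3.60% higher and 0.372% lower). Before adjustment 3 of these 5 had a p under 0.05; DESeq2 called Erbb3 and Errfi1, and limma-voom 0. For the mean of both inhibitors 3 of 5 passed, again Erbb3 higher and Lrig1 and Errfi1 lower, against 16.0% of all genes tested (11.0% higher and 4.93% lower). All of these comparisons use the same untreated libraries. In bulk skin, fewer cells of a type and less RNA per cell cannot be told apart.

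Without afatinib replicate 1, 5 of 5 members passed for gefitinib, 4 of 5 for afatinib and 5 of 5 for the mean. The share of all genes tested was then 30.0% for gefitinib (17.3% higher, 12.7% lower), 21.3% for afatinib (13.4% higher, 7.87% lower) and 33.8% for the mean (18.7% higher, 15.1% lower). Egfr, Erbb2 and Erbb3 were then the higher members in each comparison, Errfi1 was lower in each, and Lrig1 was lower for gefitinib and for the mean. The afatinib group is then 1 library, assumed to vary like the other groups. With library size only as scaling, the median gene itself moved by 0.726 (gefitinib), 0.706 (afatinib) and 0.716 (mean) on the log2 scale, and only Erbb3 passed, for gefitinib and for the mean. Relative to that median, the members' log2 fold changes for the mean of both inhibitors were 1.37 for Egfr, 1.53 for Erbb2, 1.58 for Erbb3, −0.996 for Lrig1 and −1.0 for Errfi1.

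**Figure D1:**
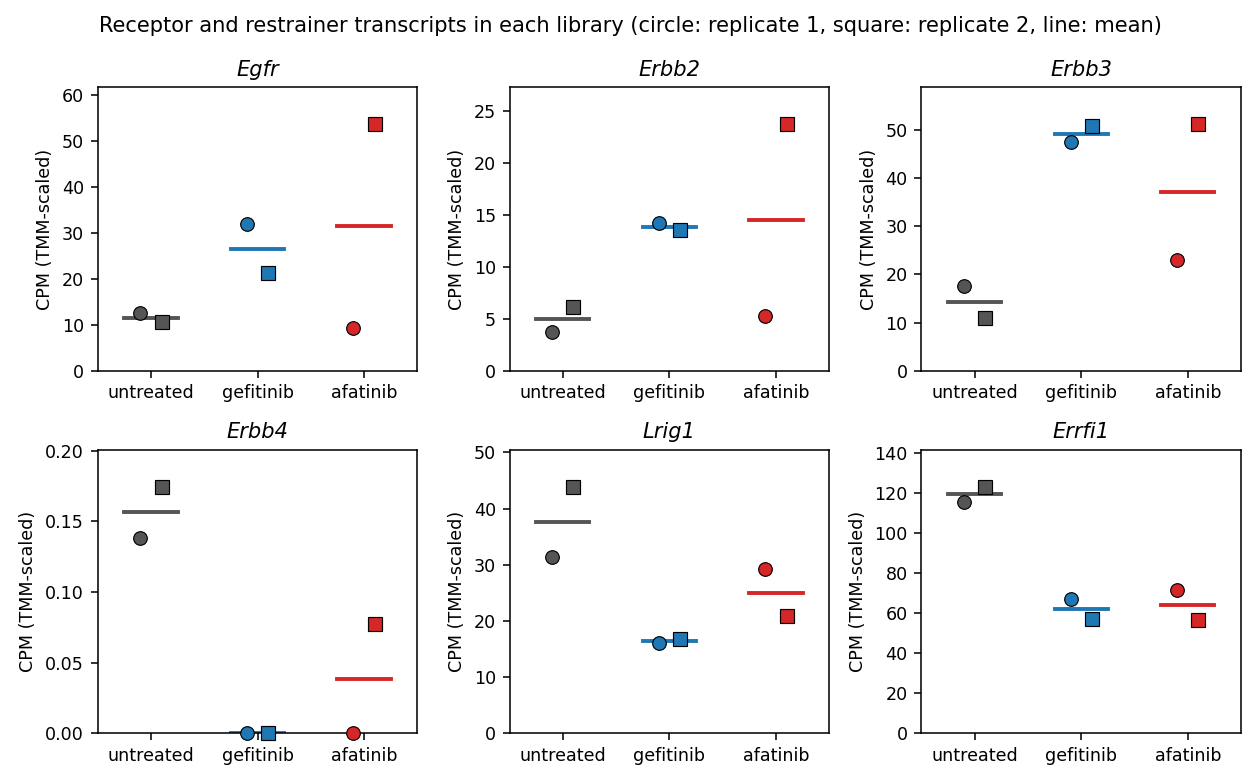
TMM-scaled CPM (y axis, linear, from 0) of each gene in each of the 6 libraries by group; circles are replicate 1, squares replicate 2 and lines group means. Errfi1 and Lrig1 lie lower in all 4 inhibitor libraries than in untreated skin, and Erbb3 lies higher, whereas Egfr and Erbb2 of afatinib replicate 1 stay at the untreated level. Of all genes tested, 18.8% lie lower in all 4 and 27.2% higher.

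Egfr, the target of both drugs, stood at 12.6 and 10.5 CPM in the untreated libraries (replicates 1 and 2), 31.9 and 21.1 with gefitinib, and 9.23 and 53.6 with afatinib. Both gefitinib libraries were above the untreated ones, as were those of 38.8% of all genes tested, and the afatinib libraries were the lowest and the highest of the 6. The log2 fold change was 1.20 ± 0.699 (SE; 95% interval −0.44 to 2.84; edgeR adjusted p = 0.247) for gefitinib and 1.45 ± 0.702 (−0.20 to 3.09; edgeR adjusted p = 0.279) for afatinib, and neither passed. Without afatinib replicate 1 the values were 1.20 ± 0.264 (edgeR adjusted p = 0.0179) and 2.21 ± 0.304 (0.00641), and both passed. Without afatinib replicate 2 the afatinib value turned to −0.38 (edgeR adjusted p = 0.70), while the gefitinib value was 1.13 and passed (0.0237).

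Erbb2, the partner receptor with no ligand, had 3.73 and 6.17 CPM in untreated skin, 14.2 and 13.6 with gefitinib, and 5.26 and 23.8 with afatinib. The gefitinib libraries lay close together. They were above the untreated ones, as were those of 38.8% of all genes tested, and afatinib replicate 1 lay between the untreated values. The log2 fold change was 1.48 ± 0.655 (95% interval −0.05 to 3.02; edgeR adjusted p = 0.144) for gefitinib and 1.55 ± 0.656 (0.02 to 3.09; edgeR adjusted p = 0.223) for afatinib. Neither passed with all libraries. Without afatinib replicate 1 both passed, at 1.48 ± 0.315 (edgeR adjusted p = 0.0161) and 2.25 ± 0.36 (0.0099). Without afatinib replicate 2 the gefitinib value was 1.41 and passed (edgeR adjusted p = 0.0225), and the afatinib value was 0.025.

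Erbb3, the neuregulin receptor with little kinase activity, had 17.6 and 10.9 CPM in untreated skin, 47.5 and 50.9 with gefitinib, and 22.9 and 51.2 with afatinib. All 4 inhibitor libraries were above both untreated ones, as were those of 27.2% of all genes tested, and afatinib replicate 1 was the lowest of the 4. The log2 fold change of Erbb3 was 1.79 ± 0.421 (SE; 95% interval 0.80 to 2.77; edgeR adjusted p = 0.0316) with gefitinib and 1.58 ± 0.382 (edgeR adjusted p = 0.0349) for the mean of both inhibitors, and both passed. For afatinib alone the value was 1.38 ± 0.417 and did not pass (edgeR adjusted p = 0.111). Leaving out 1 library moved the afatinib value between 0.63 and 1.84, the latter without afatinib replicate 1. The gefitinib call was lost when either untreated or either gefitinib library was left out, with values of 1.48 to 2.17 and edgeR adjusted p from 0.0879 to 0.186. For the mean of both inhibitors the same omissions gave 1.28 to 1.96 and edgeR adjusted p from 0.0706 to 0.239.

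Erbb4, the neuregulin receptor best known from heart and brain, was close to the limit of detection. It had 2 and 3 counts in the untreated libraries, 0 and 0 with gefitinib, and 0 and 2 with afatinib. A count of 0 allows up to 3 counts, which is 0.118 and 0.131 CPM in the gefitinib libraries and 0.195 CPM in afatinib replicate 1. The untreated libraries, at 0.138 and 0.175 CPM, were just above both gefitinib floors and under that of afatinib replicate 1. Each untreated value rests on no more than 3 counts itself, so Erbb4 was not tested and no fold is given. Floors of this kind cover counting error only.

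Lrig1, which promotes the breakdown of ERBB receptors, had 31.3 and 43.9 CPM in untreated skin, 16.1 and 16.7 with gefitinib, and 29.2 and 20.9 with afatinib. All 4 inhibitor libraries were below both untreated ones, as were those of 18.8% of all genes tested, although afatinib replicate 1 was only just below. Lrig1 fell with gefitinib, by a log2 fold change of −1.20 ± 0.286 (SE; 95% interval −1.87 to −0.53; edgeR adjusted p = 0.0328), and for the mean of both inhibitors by −0.89 ± 0.238 (edgeR adjusted p = 0.0456). The afatinib value of −0.59 ± 0.283 did not pass (edgeR adjusted p = 0.277). Leaving out 1 library moved it between −0.86, without afatinib replicate 1, and −0.32. With library size only the values were −0.52 for gefitinib, −0.036 for afatinib and −0.28 for the mean, of which none passed in edgeR's test (adjusted p from 0.321 to 0.954). The gefitinib call was lost without either untreated or either gefitinib library (edgeR adjusted p from 0.102 to 0.196), and the call of the mean likewise (0.104 to 0.327), where limma-voom also missed it (adjusted p = 0.0558).

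Errfi1, the inhibitor of the active kinase, had 115.7 and 123 CPM in untreated skin, 67.0 and 57.1 with gefitinib, and 71.8 and 56.5 with afatinib. The untreated libraries lay close together, and every inhibitor library was below them, as were those of 18.8% of all genes tested. Errfi1 fell by a log2 fold change of −0.94 ± 0.252 (SE; 95% interval −1.54 to −0.35; edgeR adjusted p = 0.0434) with gefitinib and by −0.92 ± 0.211 (edgeR adjusted p = 0.0302) for the mean of both inhibitors. For afatinib the value was −0.90 ± 0.252 and did not pass (edgeR adjusted p = 0.0935). Leaving out 1 library moved it between −1.09, without afatinib replicate 1, and −0.79. With library size only the values were −0.25, −0.32 and −0.29 and none passed in edgeR's test (adjusted p from 0.466 to 0.593). The gefitinib call was lost without either untreated or either gefitinib library (edgeR adjusted p from 0.154 to 0.234), as was the call of the mean (0.0758 to 0.201).

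**Figure D2:**
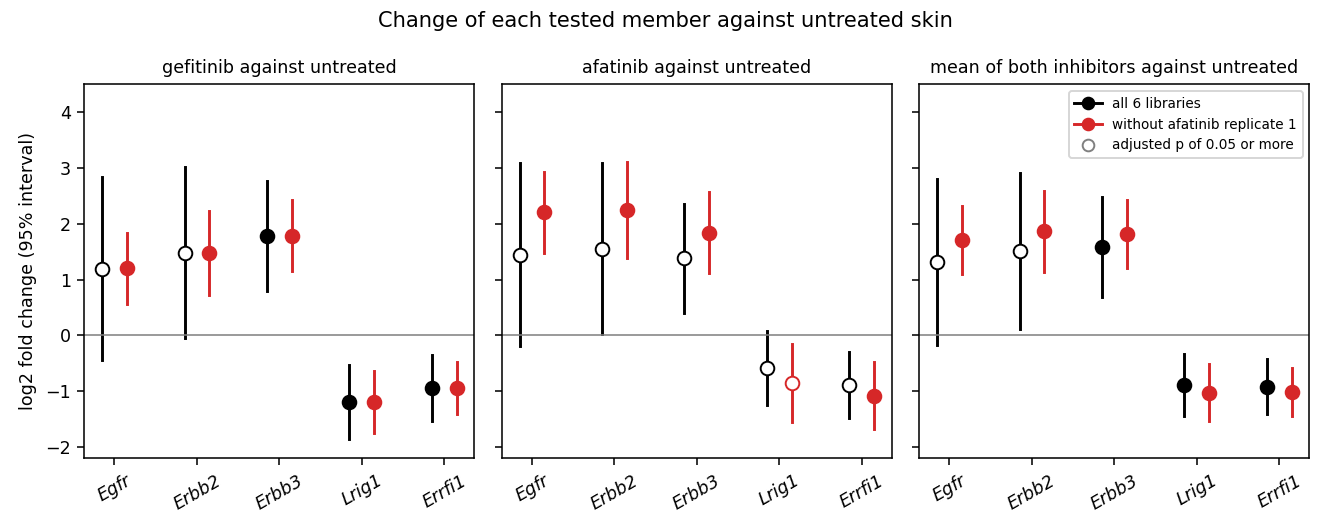
Log2 fold change (y axis) of the 5 tested genes in 3 comparisons with untreated skin, with 95% intervals from edgeR; black uses all 6 libraries, red leaves out afatinib replicate 1, and filled circles have an adjusted p under 0.05. The point estimates for gefitinib hardly move between black and red, but the intervals narrow: for Egfr the interval goes from −0.44 to 2.84 with all libraries to 0.57 to 1.83.

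Afatinib against gefitinib sets the rash groups side by side at different doses. In edgeR's test 0 of 5 members passed and 0% of all genes tested did; 0 members had a p under 0.05 before adjustment, and DESeq2 and limma-voom called 0 members. The intervals of the log2 difference were wide: −1.35 to 1.85 for Egfr, −1.41 to 1.55 for Erbb2 and −1.36 to 0.55 for Erbb3. They were narrower for Lrig1 (0.61, from −0.06 to 1.27) and Errfi1 (0.048, from −0.54 to 0.63). For Errfi1 the interval leaves room for a difference of up to 1.55-fold in favour of afatinib. Without afatinib replicate 1 Egfr stood 2.01-fold higher with afatinib (interval 1.22 to 3.32; edgeR adjusted p = 0.706), which did not pass.

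Per length, the restrainer transcripts were more abundant than those of any single receptor in untreated skin. In the deposited FPKM, which divide each count by gene length and by a scaling factor for the library, the untreated levels were 40.5 ± 1.92 for Errfi1 and 13.0 ± 3.12 for Lrig1 (mean ± SD, n = 2). Egfr followed with 2.81 ± 0.344 and Erbb3 with 2.43 ± 0.799, whose libraries overlapped, then Erbb2 with 1.06 ± 0.371 and Erbb4 with 0.0417 ± 0.00698. With gefitinib the order was Errfi1 at 20.5 ± 1.99, Erbb3 at 8.18 ± 0.534, Egfr at 6.27 ± 1.70, Lrig1 at 5.55 ± 0.231 and Erbb2 at 2.88 ± 0.0471. The Egfr and Lrig1 libraries overlapped there, and those of Erbb3 lay above both. With afatinib Errfi1 was again highest, at 20.8 ± 3.96, above every other member in both libraries. The levels of Lrig1 (8.29 ± 2.14), Egfr (7.18 ± 7.09) and Erbb3 (5.98 ± 3.11) overlapped, with Erbb2 at 2.91 ± 2.59.

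The sum of the 4 receptors was 6.88 and 5.80 FPKM in untreated skin, 18.2 and 16.5 with gefitinib, and 7.03 and 25.1 with afatinib. Within that sum Egfr took 44.4% and 44.3% in untreated skin, 41.1% and 30.8% with gefitinib, and 30.8% and 48.5% with afatinib. The share of Erbb3 was 43.6% and 32.2%, then 42.9% and 51.9%, then 53.7% and 32.5%, and that of Erbb2 between 11.5% and 22.7%. Egfr and Erbb3 thus held most of the receptor transcripts in every library. The Egfr share was lower in both gefitinib libraries than in untreated skin, by little in replicate 1, and on both sides of it with afatinib; the shares of Erbb2 and Erbb3 overlapped between the groups. Erbb4 held 0.534% and 0.804% in untreated skin, from the few counts above, and 0.0766% or less in the inhibitor libraries. The ratio of Erbb3 to Egfr ran from 0.728 to 0.982 in untreated skin and from 0.67 to 1.74 in the 4 inhibitor libraries. By the mean of the log2 ratios it was 1.42-fold higher in the inhibitor libraries (exact two-sided permutation p = 0.40). By the same mean the ratio of Erbb2 to Egfr was 1.24-fold higher (exact two-sided permutation p = 0.467). Without untreated replicate 1 that ratio was lower by 0.18 on the log2 scale.

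The restrainers were lower relative to the receptors in every inhibitor library. A ratio within a library needs no scaling between libraries. There were 1.57 and 2.63 Lrig1 transcripts per length for each receptor transcript in untreated skin, 0.296 and 0.347 with gefitinib, and 1.39 and 0.27 with afatinib. For Errfi1 the ratios were 5.69 and 7.22, then 1.20 and 1.16, then 3.35 and 0.714. All 4 inhibitor libraries were below both untreated ones in both ratios, and afatinib replicate 1 was the nearest to untreated skin. The receptor sum alone was higher in all 4, at 7.03 to 25.1 FPKM against 6.88 and 5.80. A gene with a constant FPKM would therefore also be below in all 4, so this order does not show a fall of the restrainers themselves. By the mean of the log2 ratios, the ratio was 4.59-fold lower for Lrig1 and 4.74-fold lower for Errfi1 in the inhibitor libraries. The exact two-sided permutation p was 0.0667 for each, the smallest that 15 splits of 4 against 2 libraries allow, and 0.133 after Benjamini-Hochberg adjustment over the 4 ratios tested. This design cannot reach 0.05 by that test.

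**Figure D3:**
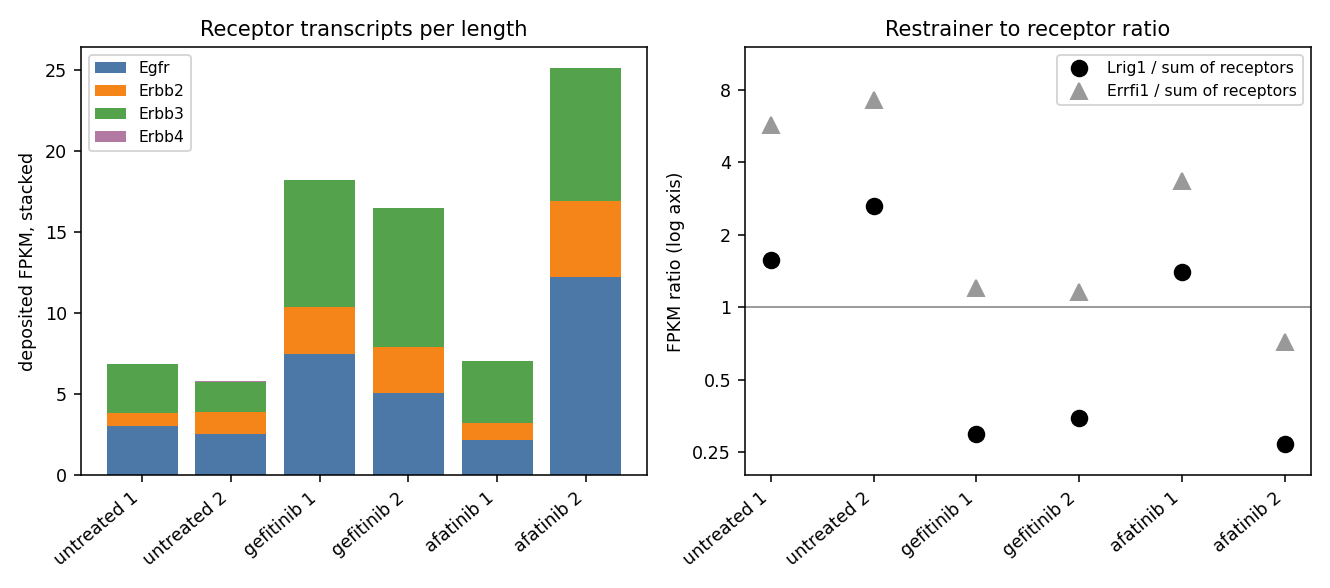
Left, deposited FPKM of the 4 receptor genes stacked for each library (y axis, linear); right, Lrig1 (circles) and Errfi1 (triangles) divided by the receptor sum, on a log axis with a line at 1. The receptor sum is 5.80 to 7.03 FPKM in the untreated libraries and afatinib replicate 1 and 16.5 to 25.1 in the other 3, and both ratios are lowest in afatinib replicate 2.

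Markers of other cell types also differed between the groups. The summed level of the 7 basal keratinocyte genes was 868 to 1527 CPM in untreated skin, 2448 to 2466 with gefitinib and 2451 to 4142 with afatinib, and 2 of the 7, Tp63 and Krt5, rose for the mean of both inhibitors. Afatinib replicate 1, at 2451 CPM, was as high as the gefitinib libraries in this sum. By the mean log2 CPM of the same 7 genes that library, at 7.65, lay between the groups. Untreated skin stood at 7.47 and 6.80 by that measure, and the gefitinib libraries at 7.96 and 7.86. The 5 suprabasal keratinocyte genes found summed to 148 to 281 CPM in untreated skin, 269 to 304 with gefitinib and 217 to 373 with afatinib, which overlap. The 8 hair follicle genes summed to 75.6 to 271 CPM in untreated skin, 3614 to 4045 with gefitinib and 1097 to 3152 with afatinib, and 8 of 8 rose for the mean. The 10 Schwann cell genes, from the glia in which ERBB2 and ERBB3 carry neuregulin signals, summed to 964 to 1419 CPM in untreated skin, 156 to 249 with gefitinib and 215 to 309 with afatinib. Of these 7 fell for the mean, including Mbp, a myelin protein gene (log2 fold change −2.72). The 5 melanocyte genes found, another cell type known to carry ERBB3, summed to 30.7 to 48.0 CPM in untreated skin, 19.2 and 181 with gefitinib and 15.3 and 93.5 with afatinib, with 0 of 5 called for the mean in edgeR, DESeq2 or limma-voom and 1 with a p under 0.05 before adjustment in each. Beside these counts of marker genes, 11.0% of all genes tested were called higher and 4.93% lower for the mean of both inhibitors. The part of these cell types in the receptor results was not tested.

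Set against the mean log2 CPM of the 7 basal keratinocyte genes, the restrainers were lower in all 4 inhibitor libraries. That mean itself was 7.47 and 6.80 in untreated skin, 7.96 and 7.86 with gefitinib, and 7.65 and 8.53 with afatinib. A gene with a constant CPM would therefore also be lower on this scale in all 4. Errfi1 stood at −0.61 and 0.15 log2 units relative to that mean in untreated skin, at −1.90 and −2.02 with gefitinib, and at −1.48 and −2.71 with afatinib. Lrig1 stood at −2.50 and −1.34, then −3.95 and −3.80, then −2.78 and −4.14. Erbb3 remained higher on this scale, at −3.33 and −3.35 in untreated skin, −2.39 and −2.19 with gefitinib, and −3.13 and −2.85 with afatinib. Egfr and Erbb2 overlapped between groups: Egfr ran from −3.82 to −3.40 in untreated skin and from −4.44 to −2.78 in the inhibitor libraries, and Erbb2 from −5.57 to −4.17 and from −5.25 to −3.96. These are descriptions with no test.

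**Figure D4:**
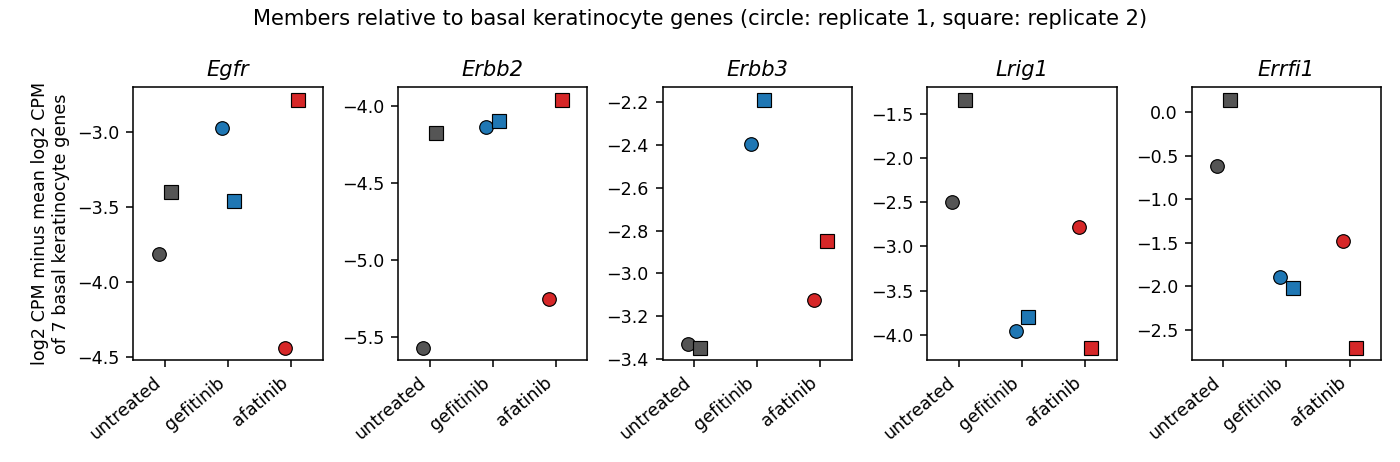
Log2 CPM of each tested gene minus the mean log2 CPM of 7 basal keratinocyte genes (y axis, log2 units, a separate range for each gene) in each library; circles are replicate 1 and squares replicate 2. The inhibitor libraries lie above the untreated ones for Erbb3 and below them for Lrig1 and Errfi1, and the groups overlap for Egfr and Erbb2. A gene with a constant CPM would also lie below, because the keratinocyte mean was higher in every inhibitor library.

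Among the ligands of the receptors, neuregulin and EGF family genes rose. Of 11 ligand genes listed 10 were found and tested, and 5 rose and 0 fell for the mean of both inhibitors. Of all genes tested, 11.0% were called higher and 4.93% lower for that mean. DESeq2 called 5 ligands higher and 1 lower, and limma-voom 4 and 0. The median log2 fold change of the ligands was 1.58, beside 0.061 over all genes tested. Nrg1, which encodes a ligand of ERBB3 and ERBB4, went from 0.346 and 0.0582 CPM (5 counts and 1 count) in untreated skin to 6.90 and 7.31 with gefitinib and to 4.87 and 11.8 with afatinib (log2 fold change 5.27; edgeR adjusted p = 0.0132). Areg, an EGFR ligand, went from 0.138 and 0.291 CPM (2 and 5 counts) to 5.53 and 2.23 with gefitinib and to 5.07 and 7.71 with afatinib (4.47; edgeR adjusted p = 0.0141). With so few untreated counts both fold changes depend on the prior count of the fit. Epgn (2.61), Nrg2 (2.51) and Tgfa (1.78) rose too, the first and the last being EGFR ligands and Nrg2 a neuregulin. Unlike Egfr and Erbb2, the ligands Nrg1, Areg, Epgn and Tgfa were above both untreated libraries in all 4 inhibitor libraries, afatinib replicate 1 included. That held for 27.2% of all genes tested, and these 4 ligands were picked by smallest p for the mean of both inhibitors. Hbegf, a ligand of EGFR and ERBB4, stood at 14.1 and 67.4 CPM in untreated skin against 8.62 to 18.6 in the inhibitor libraries and did not pass (−1.70; edgeR adjusted p = 0.0646). Against untreated skin 5 ligands rose with gefitinib and 3 with afatinib, beside 12.3% and 3.60% of all genes tested called higher. For the mean without afatinib replicate 1 the log2 fold change was 5.52 for Nrg1 and 4.60 for Areg. Leaving out an untreated library gave 0 calls in each comparison. Without gefitinib replicate 1 or 2 the count for gefitinib was 1 or 3, and the count for afatinib was 0 without afatinib replicate 2.

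Of 13 other genes that restrain the receptors, all tested, 3 rose and 0 fell for the mean of both inhibitors (median 0.54), against 11.0% higher and 4.93% lower of all genes tested. None of the 13 had a p under 0.05 before adjustment in the lower direction, and DESeq2 and limma-voom called 0 lower. For gefitinib 3 rose and 0 fell as well, while 0 passed for afatinib in edgeR and in limma-voom, and 1 in DESeq2, with 3 at a p under 0.05 before adjustment. Lrig3, a relative of Lrig1, had 15.6 and 14.0 CPM in untreated skin, 46.7 and 48.8 with gefitinib, and 22.0 and 48.7 with afatinib (log2 fold change 1.48; edgeR adjusted p = 0.0311). Lrig2, the remaining relative, stood at −0.017 (edgeR adjusted p = 0.975). Cblc, an epithelial ubiquitin ligase of the CBL family, rose by 1.28 and Ptpn2, a tyrosine phosphatase, by 0.89. Leaving out either untreated or either gefitinib library gave 0 calls in this list for gefitinib and for the mean, and leaving out afatinib replicate 1 gave 5 in each, when 17.3% (gefitinib) and 18.7% (mean) of all genes tested were called higher. Lrig3 was then at 1.70 for the mean and passed.

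Downstream of the receptors the counts are set against 16.0% of all genes tested for the mean of both inhibitors. Of 17 genes from the adaptors to ERK 1 fell for the mean of both inhibitors, the docking protein gene Gab2 (−1.48; edgeR adjusted p = 0.0326), and 0 rose (median 0.027; 1 gene in the higher direction had a p under 0.05 before adjustment, and DESeq2 and limma-voom called 0 higher). Gab2 had 5.88 and 4.65 CPM in untreated skin, 0.98 and 1.18 with gefitinib, and 3.44 and 3.16 with afatinib, and no afatinib call was made (−0.67; edgeR adjusted p = 0.381). For the mean, edgeR, DESeq2 and limma-voom called 0 of 8 genes of the PI3K-AKT branch, of which 1 had a p under 0.05 before adjustment. Of 8 ERK feedback genes, which encode inhibitors and phosphatases that ERK signalling induces, edgeR and limma-voom called 0 and DESeq2 1, with 3 at a p under 0.05 before adjustment. Among the latter, Spry1 stood at −0.67 (edgeR adjusted p = 0.0838), Dusp6 at 0.68 (0.101) and Dusp5 at 1.16 (0.103). Of the 4 genes of ligand release 0 passed for the mean in edgeR's test and limma-voom and 1 in DESeq2 (1 at a p under 0.05 before adjustment), and Rhbdf2, which guides the ligand-shedding protease ADAM17, rose with gefitinib (1.28; edgeR adjusted p = 0.0441). Without afatinib replicate 1 the counts for the mean were 2 higher and 4 lower of 17 adaptor genes, 2 higher and 1 lower in the PI3K-AKT branch, 1 lower among feedback genes (Spry1, −0.74) and 1 higher in ligand release (Rhbdf2, 1.20), and Gab2 was at −1.51 and passed. The share of all genes tested was then 33.8%, near that of the adaptor list.

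**Figure D5:**
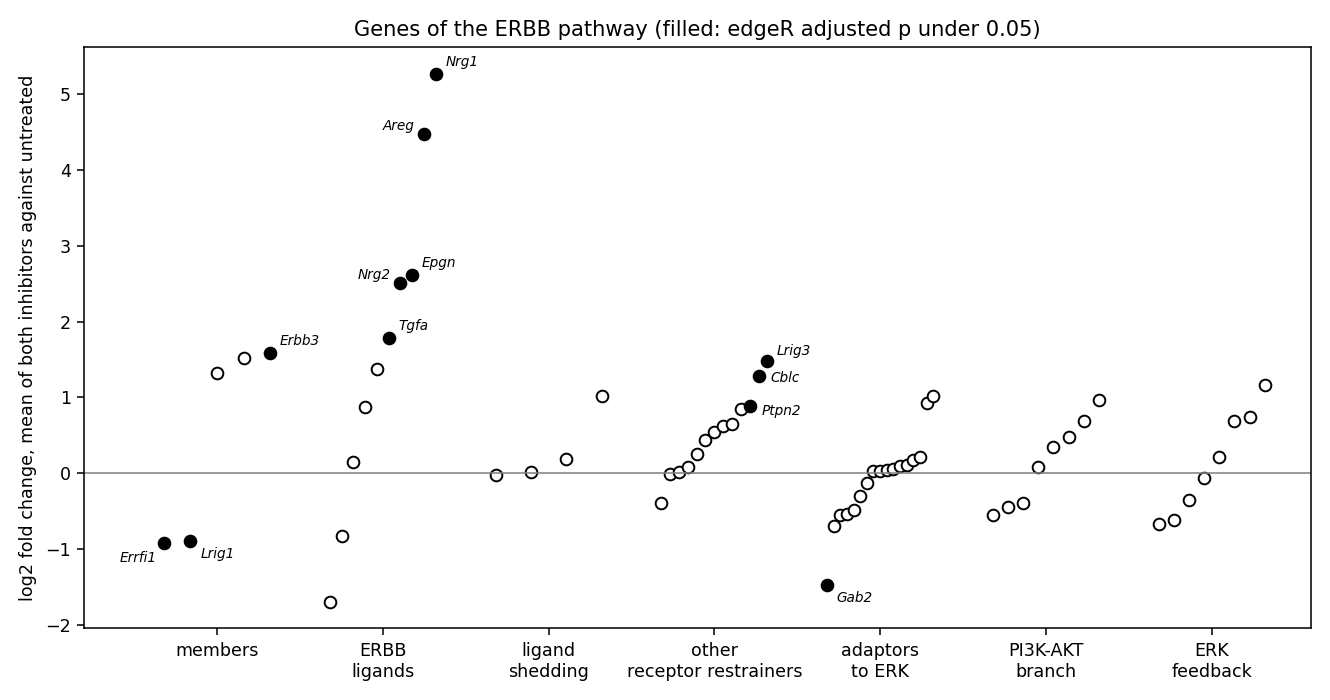
Log2 fold change (y axis) of each tested gene for the mean of both inhibitors against untreated skin, grouped by its role (x axis); filled circles have an edgeR adjusted p under 0.05 and carry the gene name. The called genes are 3 members, 5 ligands, 3 other restrainers and Gab2.

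The genes whose profile over the 6 libraries was most like each member were found among 12752 named genes by the root mean square distance between log2 CPM values centred on each gene's mean. Nearest to Erbb3 were Reep4 (0.0787 log2 units), Lin9 (0.0809) and Mtbp (0.099), against a distance of 0.843 between Erbb3 and a flat profile. Nearest to Errfi1 were Ehd1 (0.0617), Cyp2u1 (0.0701) and Lonp2 (0.0792), with 0.452 from flat, and nearest to Lrig1 were Cdh26 (0.0586), Fam219a (0.0786) and Flot2 (0.0787), with 0.509 from flat. Egfr and Erbb2 had no neighbour as close: Sema4g (0.196) and Lgr6 (0.201) were among the nearest to Egfr, and Marveld2 (0.177), Nhs (0.193) and Arid3a (0.193) were nearest to Erbb2. In afatinib replicate 2, the highest library for both, Egfr was 2.21 and Erbb2 2.26 log2 units above the untreated mean.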

How the data were processed

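RNA from frozen back skin (Trizol, TruSeq libraries, per the labels) was measured in 6 libraries. DESeq2 1.16.1, featureCounts 1.5.0-p3 and HISAT2 2.0.5 are named in the submitters' processing notes, with roles, genome build and strand setting not given in the sources used here. Deposited counts are whole reads per gene, unscaled. Deposited FPKM are, by the authors, the count over gene length and over a divisor for each library, checked against the counts. Columns were matched to samples by the code in each title.

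Counts were filtered with filterByExpr and scaled by TMM. Tests used edgeR 4.0.16 quasi-likelihood fits (R 4.3.3) of all 6 libraries, with a mean for each group, which leaves 3 residual degrees of freedom. P-values are two-sided and Benjamini-Hochberg adjusted over all genes tested, with a threshold of 0.05. On simulated counts of 16039 genes with 200 changed 4-fold, 87 were recovered for gefitinib (10.3% of its calls false), 83 for afatinib (11.7%) and 123 for their mean (10.2%). The change was the same in both inhibitor groups there, and no library was made to stand apart. These rates are therefore not those for the members. Members, lists and tests were chosen with earlier results of these data known. Named genes are the 6 members, up to 4 genes per list by smallest p for the mean, and the 3 nearest profiles per member (mean of at least 1 CPM, 0.5 CPM added before the log). Nrg2, Hbegf and Lrig2 were named after their values were seen. Some genes that this rule selects are not reported here. DESeq2 1.42.0, limma 3.58.1, other scalings, the compared groups alone, a replicate block and omitting each library were alternatives. FPKM ratios were tested by exact permutation of libraries.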

Additional observations from a re-analysis of the deposited data

How the results depend on the processing

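With 2 libraries a group, the calls rest on a shared estimate of spread, and Erbb4 is limited by depth. Leaving out 1 library gave 0 to 5 members called for gefitinib, 0 to 4 for afatinib and 0 to 5 for the mean of both inhibitors, and 0 to 5320, 0 to 3653 and 3 to 5809 genes; for afatinib against gefitinib it gave 0 members and 0 to 3 genes. It gave log2 differences of −2.75 to −1.83 for the Lrig1 ratio, −2.68 to −1.94 for the Errfi1 ratio, 0.29 to 0.78 for Erbb3 over Egfr and −0.18 to 0.81 for Erbb2 over Egfr.

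The other counts that moved by over 1.5 times were these, beside 3, 0 and 3 members and 2906, 652, 2618 and 0 genes for gefitinib, afatinib, their mean and afatinib against gefitinib. With no filter on low counts 4550, 2083, 4200 and 28 genes passed, with 3 members for afatinib and 5 for the mean. DESeq2 called 4682, 1992, 4251 and 31 genes, and 2 members for afatinib. With library size only, 1 member passed for gefitinib and 1 for the mean, and 1281 genes for afatinib and 1 for afatinib against gefitinib. In limma-voom 34 genes passed for afatinib. With only the groups compared, 5 members and 5286 genes passed for gefitinib and 51 genes for afatinib. Scaling without the 15 skeletal muscle genes moved no count by over 1.5 times. The scaling itself hardly changed, with a median log2 fold change of 0.0421 against 0.0429 for gefitinib. It therefore says little about the effect of the muscle difference.

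With the replicate number as a block, 1 member passed for gefitinib (Erbb3), 1 for the mean (Errfi1), and 369 genes for afatinib. The libraries share only a number: replicate deviations correlated across genes at 0.0405 for untreated and gefitinib, 0.0596 for untreated and afatinib and −0.228 for gefitinib and afatinib. Of 275 refitted log2 fold changes of members 11 turned sign. In afatinib against gefitinib, where no member passed, these were Errfi1 with library size only (−0.068), Egfr (−0.10) and Erbb2 (−0.15) in limma-voom and Erbb2 with the replicate block (−0.25). The others came from leaving out 1 library. Leaving out 1 library gave −1.51 to 1.01 for Egfr, −1.39 to 0.77 for Erbb2, −1.09 to 0.050 for Erbb3 and −0.14 to 0.22 for Errfi1 there, and −0.38 to 2.21 for Egfr in afatinib against untreated. The cause was not tested.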
